A study of Mus musculus with 24 samples.

Results

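Hearts that carry Clock delta 19/delta 19 and were taken early in the light phase, at zeitgeber time 3 (ZT03, 3 h after lights on), were compared with those taken late in the same light phase, at ZT11. The members were the 4 hearts whose titles give ZT03 and the 4 whose titles give ZT11, 8 of 24 hearts in all. Every mouse was male, 8 weeks old, homozygous for the Clock delta 19 allele and kept in 12 h of light and 12 h of darkness, and the tissue was myocardium. The other 16 hearts, 4 each at ZT07, ZT15, ZT19 and ZT23, carried the same genotype and entered only the estimate of the spread and the comparisons where they are named. The labels call the 4 hearts of a time point biological replicates and do not speak of pooling or of the strain background. The mutation is carried by every cell of the animal, so its effects within the heart and through signals that reach the heart cannot be told apart. Wild-type hearts were not analysed here.

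In a mammalian heart the circadian clock runs in each cell. CLOCK and its partner BMAL1, the product of Arntl, bind E-box sequences and switch on the Per and Cry repressors, the REV-ERB genes Nr1d1 and Nr1d2, and many genes of metabolism, and the REV-ERB proteins in turn hold down Arntl. The delta 19 form of CLOCK still pairs with BMAL1 but activates transcription poorly, while light, feeding, body temperature and hormones still change over the day. In a mouse, which is active and feeds mostly in the dark, ZT03 falls early in the rest phase and ZT11 shortly before activity begins.

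Every value below is the deposited log2 value of a heart around that gene's own median over the 24 arrays, so 0 is the gene's middle array and a difference of 0.58 is 1.5-fold. Such values hold no level: genes cannot be ranked by abundance, and the labelled tissue could not be checked against heart muscle markers, which have a difference between hearts but no amount. Over the 24 arrays the values ran from -1.89 to 2.11, array medians from -0.0080 to 0.0023, and the median SD within a time point was 0.087 over 22180 genes. The number of arrays limits the precision. ZT11 replicate 1 stood apart: its values were the widest of the 24 (SD over genes 0.149), and it had the lowest weight when limma estimated the quality of each array (0.54). The number of calls, in all and in the gene lists with several calls, is therefore given with and without it.

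Between ZT03 and ZT11, 507 of 22180 genes differed (2.29%; limma moderated test over all genes, Benjamini-Hochberg adjusted p under 0.05). The direction was uneven: 407 genes were higher at ZT03 (1.83%) and 100 were lower (0.451%), and 80.3% of the calls were therefore higher early in the light phase. At an unadjusted p under 0.05 there were 3219 genes, where 1109 are given by chance. The changes were mostly small. The median difference was 0.33 for the higher genes, from 0.16 to 0.88, and -0.29 for the lower genes, from -1.05 to -0.11, beside a median of -0.0050 over all genes. A difference of 1.5-fold or more was reached by 26 called genes, 19 higher and 7 lower. In 458 of the 507 called genes the 4 ZT03 hearts all lay on one side of the 4 ZT11 hearts, and such a gap was found in 1795 of all genes (8.09%; 4.62% with ZT03 above and 3.47% with ZT03 below). In bulk tissue, fewer cells of a type and less RNA per cell cannot be told apart.

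The number of calls rested on single hearts. It was 203 without ZT11 replicate 1 (137 higher, 67.5% of them), 244 without ZT11 replicate 3, 306, 241 and 190 without ZT03 replicates 1, 2 and 3, and 747 without ZT11 replicate 4. Of the 507 genes, 115 higher and 22 lower ones passed in all 24 fits that leave out a heart. ZT11 replicate 1 had the lowest mean over the 407 higher genes of any heart, -0.26, against -0.14, -0.19 and -0.068 in the other ZT11 hearts, while the ZT03 hearts lay between 0.14 and 0.24. Over the 100 lower genes the ZT11 hearts were closer together, at 0.20, 0.21, 0.17 and 0.13, and the ZT03 hearts lay between -0.19 and -0.13. The second component of the variation among hearts of the same time point, with 8.60% of that variation, correlated with the ZT03 minus ZT11 difference at r = -0.46 across genes, which are not independent replicates. Its scores were highest in ZT11 replicate 1 (12.8), ZT23 replicate 1 (10.2) and ZT15 replicate 3 (8.16) and lowest in ZT03 replicate 3 (-7.31). With the first 2 components as covariates, an alternative chosen after the data were seen, 89 genes were called (55 higher and 34 lower), 72 of them among the 507. What this component measures was not tested.

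**Figure D1:**
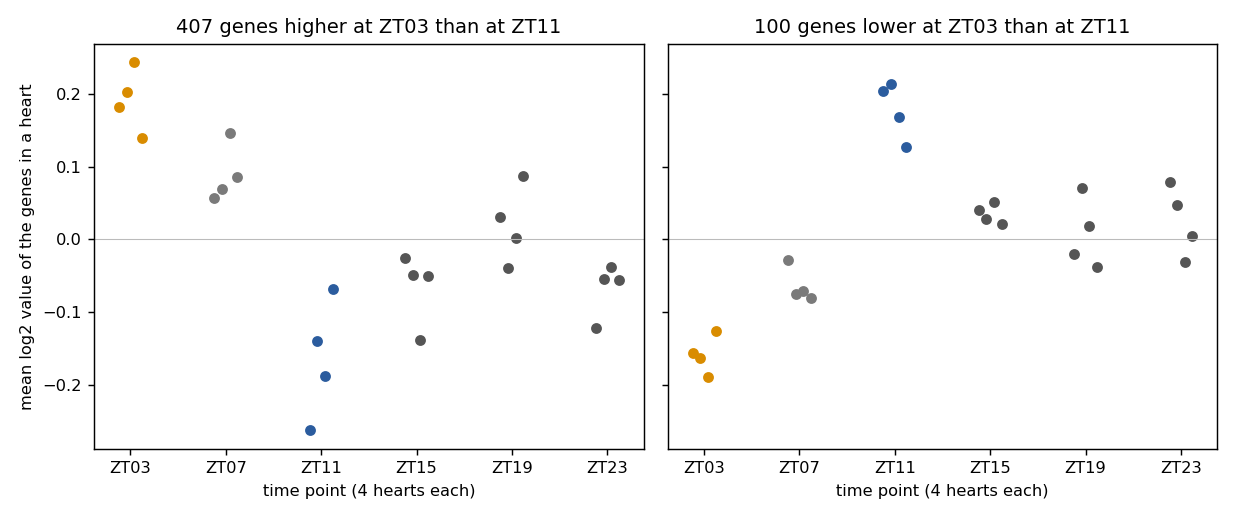
Mean log2 value around each gene's median of 24 arrays (vertical axis) in each of the 24 hearts (points, by time point) over the 407 genes called higher at ZT03 (left) and the 100 called lower (right). The genes were chosen on the ZT03 and ZT11 hearts, so only the other time points are free to vary; ZT07 hearts lie between 0.056 and 0.15 in the left plot, and ZT11 replicate 1 is the lowest heart there.

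The smallest p-values belonged to a chaperone, a lipase and a mitochondrial peroxidase. Cryab, the gene of the small heat shock protein αB-crystallin, which protects desmin and actin filaments, measured -0.33, -0.44, -0.38 and -0.37 in the 4 ZT03 hearts and 0.33, 0.12, 0.12 and 0.020 in the 4 ZT11 hearts. All ZT03 hearts were low and the groups did not overlap, with a difference of -0.53 ± 0.056 (SE; adjusted p = 0.00016). Its features disagreed in size, at -0.80 and -0.26. Lpl, the gene of lipoprotein lipase, which frees fatty acids from circulating triglyceride for uptake by heart muscle, measured -0.25, -0.27, -0.31 and -0.35 at ZT03 and 0.35, 0.27, 0.19 and 0.071 at ZT11. Again the ZT03 hearts were all low and the groups were apart (-0.52 ± 0.063, adjusted p = 0.00048), with -0.75 and -0.29 for its features.

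Prdx3, the peroxiredoxin that removes hydrogen peroxide inside mitochondria, ran the other way. Its values were 0.36, 0.33, 0.39 and 0.42 at ZT03 and -0.22, -0.11, -0.10 and -0.079 at ZT11, so that the ZT03 hearts were high, tightly grouped and clear of ZT11 (0.50 ± 0.062, adjusted p = 0.00048). Tmem63b, which codes for a stretch-activated membrane channel, measured -0.25, -0.23, -0.19 and -0.15 at ZT03 and 0.15, 0.12, 0.19 and 0.12 at ZT11, low in every ZT03 heart (-0.35 ± 0.045, adjusted p = 0.00097; features -0.49 and -0.21). Golph3l, which codes for a Golgi membrane protein, and Tmem65, which codes for a protein of mitochondria and of the intercalated disc, were higher at ZT03 by 0.43 ± 0.059 and 0.36 ± 0.050 (adjusted p = 0.0016 for both). Lgr4, a receptor for R-spondins that strengthens Wnt signalling, measured 0.23, 0.16, 0.23 and 0.25 at ZT03 and -0.34, -0.46, -0.18 and -0.21 at ZT11. The groups were apart, with the ZT03 hearts within a narrow range (0.52 ± 0.076, adjusted p = 0.0032). Itgb1, the β1 integrin subunit that anchors heart muscle cells to matrix, was higher by 0.29 ± 0.043 (adjusted p = 0.0033). Cryab, Lpl, Prdx3, Tmem63b, Golph3l, Tmem65, Lgr4 and Itgb1 all kept an adjusted p under 0.05 whichever of the 24 hearts was omitted.

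**Figure D2:**
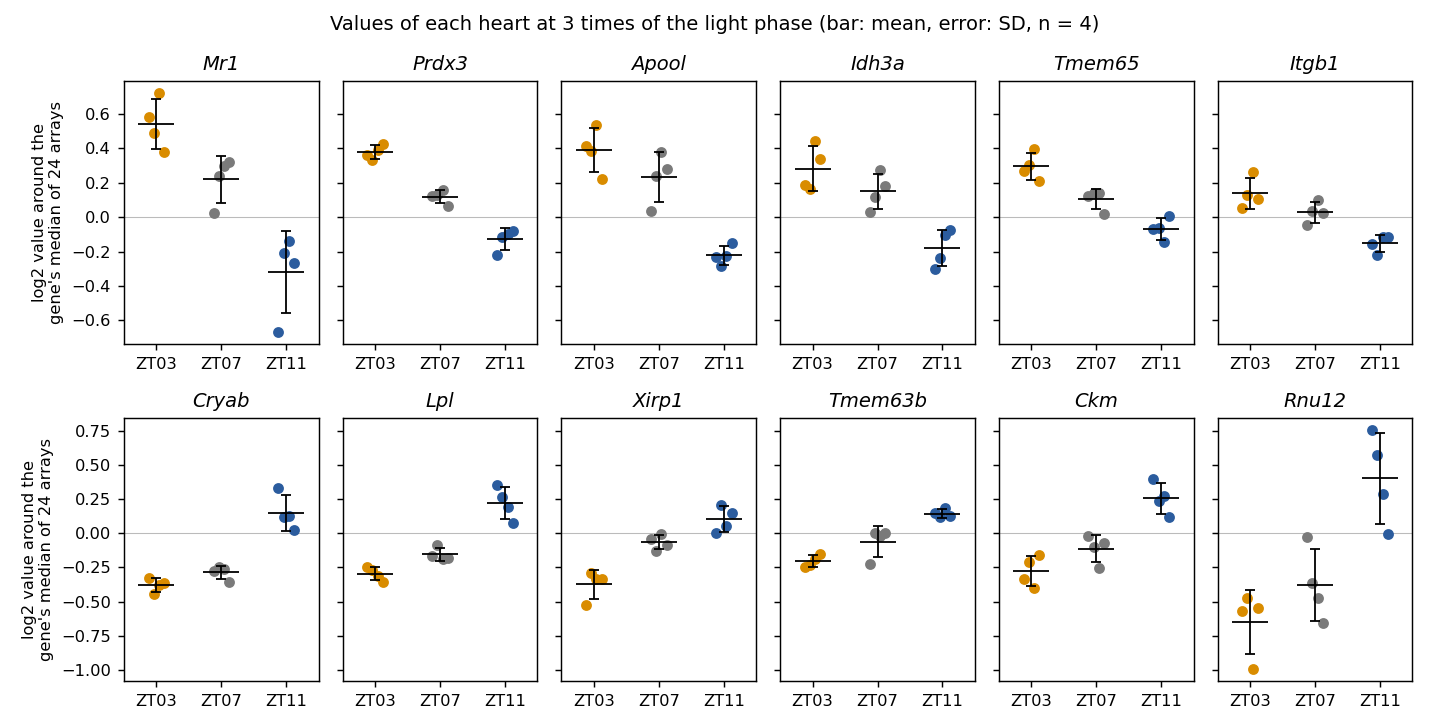
Log2 value around the gene's median of 24 arrays (vertical axis) of each heart (points) at ZT03, ZT07 and ZT11 for 6 genes higher (top row) and 6 genes lower (bottom row) at ZT03, with bars at the mean and error bars of 1 SD (n = 4). In all 12 genes the ZT03 and ZT11 hearts do not overlap, and the ZT07 mean lies between the ZT03 and ZT11 means.

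The 12 largest increases at ZT03 under the rule for named genes, which leaves out small nucleolar RNAs and gene models without a proper symbol, came from genes of varied function. Uprt, a relative of uracil phosphoribosyltransferases, had the largest called increase (0.88 ± 0.20, adjusted p = 0.02), from 0.59, 0.46, 0.82 and 0.083 at ZT03 and -0.55, -0.63, -0.18 and -0.21 at ZT11. ZT03 replicate 4 was well below the other ZT03 hearts but still above every ZT11 heart. Mr1, which codes for a class I-like molecule that presents vitamin B metabolites to T cells, measured 0.58, 0.49, 0.72 and 0.38 at ZT03 and -0.67, -0.21, -0.14 and -0.27 at ZT11. It was the single call among 15 class I and class I-like genes, the groups were apart and ZT11 replicate 1 was the lowest heart (0.86 ± 0.13, adjusted p = 0.0029). Cd59a, an inhibitor of the complement attack complex, measured 0.51, 0.34, 0.75 and 0.30 at ZT03 and -0.50, -0.30, -0.50 and -0.15 at ZT11, with no overlap (0.84 ± 0.18, adjusted p = 0.015). Atad1, an ATPase that removes misplaced proteins from the outer mitochondrial membrane, was higher by 0.75 ± 0.16 and Tmem59, of the Golgi and endosomes, by 0.72 ± 0.13. Vamp7, a SNARE of late endosomes and lysosomes, was higher by 0.69 ± 0.14, and Cript, whose protein binds PDZ domains and microtubules, by 0.69 ± 0.11. Sike1, a suppressor of the kinase IKKε, was higher by 0.69 ± 0.17. Coq5, a methyltransferase of coenzyme Q synthesis, was higher by 0.68 ± 0.16 and Fbxo8, an F-box gene, by 0.65 ± 0.11. Cldnd1 and Mospd1 completed the 12 largest, each at 0.65 (SE 0.14 and 0.11). Mr1, Tmem59, Cript, Vamp7, Fbxo8 and Mospd1 passed with each heart left out. The others lost their call in some of the 24 fits, with the highest adjusted p and the heart then left out in brackets: Uprt in 5 (adjusted p up to 0.0877, without ZT03 replicate 3), Cd59a in 3 (up to 0.0661, without ZT03 replicate 3), Atad1 in 2 (up to 0.0661, without ZT03 replicate 3), Sike1 in 6 (up to 0.129, without ZT03 replicate 3), Coq5 in 5 (up to 0.104, without ZT11 replicate 1) and Cldnd1 in 1 (up to 0.0631, without ZT11 replicate 1).

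The largest decreases at ZT03 included small noncoding RNAs. Rnu12, the U12 RNA of the minor spliceosome, measured -0.57, -0.48, -0.99 and -0.55 at ZT03 and 0.76, 0.57, 0.28 and -0.0027 at ZT11. The groups were apart although ZT11 spread widely, and the difference of -1.05 ± 0.20 (adjusted p = 0.0082) was the largest of any called gene in either direction. Rnu11, the U11 RNA of the same machinery, measured -0.41, -0.52, -1.09 and -0.27 at ZT03 and 0.52, 0.39, 0.18 and -0.24 at ZT11, with ZT03 replicate 3 far below the rest and only a narrow gap between the groups (-0.79 ± 0.17, adjusted p = 0.016). Rpph1, the RNA of the tRNA-trimming enzyme RNase P, measured -0.37, -0.29, -0.72 and -0.62 at ZT03 and 0.75, 0.52, 0.20 and -0.071 at ZT11, again without overlap (-0.85 ± 0.18, adjusted p = 0.015). Over all genes, 0.451% were called lower and 1.83% higher. Called lower were 2 of 6 measured small nuclear RNAs and 1 of 3 RNAs of the RNase P class. Of 81 small nucleolar RNAs, 1 was called higher and 2 lower. These are Snora30 (0.62), Snord13 (-0.87) and Snord55 (-0.62). The rule for named genes leaves out small nucleolar RNAs and gene models without a proper symbol, so these 3 were named after their values were seen, although Snord13 and Snord55 fell by more than most of the genes below. Of the rest of the 12 largest decreases under that rule, Tcap, Rpl38, Atp5e, Ckm, Cryab and Lpl are described with their groups. Timp4, an inhibitor of matrix metalloproteinases that is abundant in heart, was lower, at -0.63 ± 0.15, Lynx1, a modulator of nicotinic receptors, at -0.52 ± 0.11, and the secretoglobin gene Scgb1c1 at -0.49 ± 0.13. Rnu12 passed with each heart left out. The other calls were lost as follows: Rnu11 in 2 (adjusted p up to 0.0692, without ZT03 replicate 3), Rpph1 in 2 (up to 0.0628, without ZT03 replicate 3), Timp4 in 6 (up to 0.116, without ZT03 replicate 2), Lynx1 in 3 (up to 0.0642, without ZT11 replicate 1) and Scgb1c1 in 16 (up to 0.174, without ZT03 replicate 3).

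Among the core clock genes, Arntl was the single one of 21 measured that was called. Its values were 0.13, 0.35, 0.027 and 0.45 at ZT03 and -0.38, -0.35, -0.42 and -0.21 at ZT11. Every ZT11 heart was below every ZT03 heart, ZT03 itself was split between a low and a high pair, and the difference was 0.58 ± 0.15 (adjusted p = 0.042). The call was lost in 11 of the 24 fits with a heart left out (adjusted p up to 0.121, without ZT03 replicate 2), with the 2 components as covariates (0.23), under quantile normalization (0.117) and with the 8 arrays of ZT03 and ZT11 alone (0.0568). Clock, the mutated gene, measured 0.085, 0.12, 0.062 and 0.0043 at ZT03 and -0.30, -0.19, -0.24 and -0.18 at ZT11. These groups were also apart, but the difference of 0.30 ± 0.093 did not pass (adjusted p = 0.104). The labels and files do not say where the Clock probes lie, and no check of the mutation was drawn from its level. The other CLOCK-like partners Npas2 and Arntl2 stood at 0.14 and 0.024 (adjusted p = 0.537 and 0.944).

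None of the 7 genes of the PER and CRY arm was called, nor any of 4 REV-ERB and ROR genes, 6 output regulators and 7 output enzymes, at a 2.29% rate over all genes. Per1, an early repressor that light and glucocorticoids also switch on, measured -0.26, -0.065, 0.014 and 0.35 at ZT03 and 0.48, 0.61, 0.39 and 0.76 at ZT11. No ZT03 heart reached the lowest ZT11 heart, yet the spread left the difference of -0.55 ± 0.18 short of the threshold (adjusted p = 0.117). Per3 stood at -0.052, Cry1 at 0.085, Cry2 at -0.19, and the kinase gene Csnk1e, Timeless and Ciart at -0.027, -0.047 and -0.047. Nr1d1, which codes for REV-ERBα, measured -0.28, -0.040, -0.31 and -0.025 at ZT03 and 0.024, 0.026, -0.24 and 0.21 at ZT11, with overlap (-0.17 ± 0.13, adjusted p = 0.651). Nr1d2, Rora and Rorb stood at -0.061, 0.046 and 0.19. Dbp, a PAR bZIP output factor whose mRNA falls and rises steeply in hearts with a working clock, measured 0.23, -0.081, -0.056 and -0.077 at ZT03 and 0.19, 0.085, 0.087 and 0.19 at ZT11. Apart from ZT03 replicate 1 the ZT03 hearts were slightly lower (-0.13 ± 0.12, adjusted p = 0.693). Hlf, Tef, Nfil3, Bhlhe40 and Bhlhe41 lay between -0.12 and 0.049, none with an adjusted p under 0.408.

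Promoter windows from RefSeq (GRCm38.p6, 250 bases before to 50 after the annotated start) were searched on both strands for 5 motifs of factors that follow the clock, temperature or cAMP. They were found for 16990 of the genes tested, 319 of the genes called higher and 68 called lower. The 4 windows below each belong to the called named gene of largest difference that holds the motif, written in capitals. Genes with a window on a chromosome that was set aside were not considered, so the named genes listed below may lack some. Arntl is shown for the ROR element that REV-ERB and ROR proteins bind, and Insig1 for the E-box of CLOCK and BMAL1. Prdx3 is shown for a heat shock element and Mrpl16 for a cAMP response element. The Mrpl16 window also holds a heat shock element, left in small letters. Coordinates follow the name, and each sequence runs 5′ to 3′ on the gene's strand.

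Arntl, chr7:113207261-113207560, + strand: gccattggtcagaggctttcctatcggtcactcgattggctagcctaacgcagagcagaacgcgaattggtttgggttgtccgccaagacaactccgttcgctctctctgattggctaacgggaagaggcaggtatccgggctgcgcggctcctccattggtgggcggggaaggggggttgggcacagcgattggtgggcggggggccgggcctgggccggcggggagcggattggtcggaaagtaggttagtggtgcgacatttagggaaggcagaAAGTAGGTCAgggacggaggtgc
Insig1, chr5:28071162-28071461, + strand: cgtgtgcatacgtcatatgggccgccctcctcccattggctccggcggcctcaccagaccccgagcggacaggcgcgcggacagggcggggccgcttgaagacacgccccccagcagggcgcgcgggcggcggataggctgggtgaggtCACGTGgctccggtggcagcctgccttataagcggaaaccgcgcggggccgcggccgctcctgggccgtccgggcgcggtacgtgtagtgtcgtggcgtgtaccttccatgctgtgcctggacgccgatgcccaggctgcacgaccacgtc
Prdx3, chr19:60874489-60874788, - strand: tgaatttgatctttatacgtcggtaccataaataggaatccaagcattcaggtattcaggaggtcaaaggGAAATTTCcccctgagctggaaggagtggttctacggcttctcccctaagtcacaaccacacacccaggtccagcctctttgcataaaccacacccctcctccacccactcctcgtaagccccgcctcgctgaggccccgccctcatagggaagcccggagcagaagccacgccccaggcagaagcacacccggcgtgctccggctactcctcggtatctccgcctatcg
Mrpl16, chr19:11770165-11770464, + strand: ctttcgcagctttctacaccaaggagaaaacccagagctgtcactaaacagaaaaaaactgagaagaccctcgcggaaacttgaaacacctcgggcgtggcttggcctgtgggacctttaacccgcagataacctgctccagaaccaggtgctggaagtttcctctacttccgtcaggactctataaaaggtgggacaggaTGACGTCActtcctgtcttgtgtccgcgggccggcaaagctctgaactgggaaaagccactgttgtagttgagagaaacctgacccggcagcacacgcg

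The E-box, CACGTG, stood in the windows of 11.9% of the higher genes and 17.6% of the lower genes, 12 of 68, beside 9.19% of all genes and 8.07% of all 20611 windows. Among the named genes it was found in Insig1, Hif1a, Eif4e and Kcnj2, which were higher at ZT03, and in Klf15, Pdk2, Bnip3, Lamp1 and Ndufv1, which were lower. The ROR element, searched as GGTCA preceded by A, any 2 bases, T and any 1 base, was found in 0.940% of the higher and 2.94% of the lower genes beside 2.53% of all genes and 2.18% of windows. Besides Arntl, in 1 of its windows, it was found in Cox7a1 and Tnni3. The D-box, TTATGTAA, stood in 0.940% of the higher genes and none of the lower ones beside 1.01% of all genes and 0.854% of windows. For the heat shock element, GAANNTTC or TTCNNGAA, the shares were 13.2%, 14.7%, 15.7% and 13.7%, and for the cAMP response element, TGACGTCA, 2.19%, 4.41%, 2.65% and 2.32%. A match says only that the letters are there.

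In each list of fuel supply a few genes were called and most were not, beside 2.29% called over all genes. Of 23 genes of lipoprotein lipase and lipolysis, Lpl and Pnpla2 fell at ZT03 relative to ZT11 and Pnpla8 rose (list median 0.0080). Pnpla2, the gene of adipose triglyceride lipase, measured -0.30, -0.21, -0.078 and 0.078 at ZT03 and 0.22, 0.18, 0.23 and 0.25 at ZT11. The ZT11 hearts were close together and above all ZT03 hearts (-0.35 ± 0.083, adjusted p = 0.031). Pnpla8, a calcium-independent phospholipase of mitochondria and peroxisomes, measured 0.13, 0.17, 0.17 and 0.051 at ZT03 and -0.31, -0.26, -0.17 and -0.015 at ZT11, all ZT03 hearts being higher (0.32 ± 0.049, adjusted p = 0.0034). Pdk2, a kinase that switches off pyruvate dehydrogenase, was the single called gene of 20 PPAR alpha and fasting targets (-0.42 ± 0.099, adjusted p = 0.028). Of 25 genes of fatty acid oxidation, 2 were higher at ZT03: Acadl, the long-chain acyl-CoA dehydrogenase (0.20 ± 0.049, adjusted p = 0.033), and Acsl4, which attaches coenzyme A to arachidonate (0.27 ± 0.072, adjusted p = 0.047). Acot2, a mitochondrial thioesterase outside the rule for named genes, had the largest difference of that list but did not pass (1.13 ± 0.39, adjusted p = 0.15). Of 30 genes of glucose transport and glycolysis, Gbe1, the glycogen branching enzyme, was higher by 0.21 ± 0.050 (adjusted p = 0.027). Of 19 genes of sterol synthesis, Insig1, which holds back the SREBP pathway, and Hmgcs1, which makes HMG-CoA, were higher by 0.43 ± 0.11 and 0.29 ± 0.075 (adjusted p = 0.035 and 0.039). The 4 ZT03 values of Insig1 lay within 0.20 to 0.23, while ZT11 ran from -0.40 to 0.011. Without ZT11 replicate 1, 1 lipolysis gene was called higher and 1 lower, and none was called in fatty acid oxidation, sterol synthesis, glucose transport and glycolysis or the PPAR alpha targets. Lpl and Pnpla8 passed with each heart left out, and the other calls of this group did not: Pnpla2 in 5 (adjusted p up to 0.105, without ZT03 replicate 1), Pdk2 in 6 (up to 0.0961, without ZT03 replicate 2), Acadl in 6 (up to 0.136, without ZT03 replicate 3), Acsl4 in 16 (up to 0.156, without ZT03 replicate 3), Gbe1 in 5 (up to 0.105, without ZT11 replicate 1), Insig1 in 6 (up to 0.125, without ZT11 replicate 3) and Hmgcs1 in 5 (up to 0.145, without ZT11 replicate 1).

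Genes of the mitochondrial lists moved in both directions, the called genes of the TCA cycle list all higher and those of the respiratory chain mostly lower at ZT03. The TCA cycle list also holds Mdh1, whose enzyme is cytosolic. Of the 16 genes of this list, 3 were higher and none was lower (median 0.078), beside 1.83% higher and 0.451% lower over all genes. Idh3a, a catalytic subunit of NAD-dependent isocitrate dehydrogenase, measured 0.19, 0.16, 0.44 and 0.34 at ZT03 and -0.30, -0.24, -0.11 and -0.076 at ZT11. The groups were apart (0.46 ± 0.076, adjusted p = 0.004). Dld, the E3 subunit shared by pyruvate and 2-oxoglutarate dehydrogenase, was higher by 0.25 ± 0.046 and the cytosolic malate dehydrogenase gene Mdh1 by 0.24 ± 0.056. Of 33 genes of mitochondrial dynamics, import and cristae, 4 were higher and 1 was lower (median 0.030). Apool, a cardiolipin-binding subunit of the MICOS complex at cristae junctions, measured 0.41, 0.38, 0.53 and 0.22 at ZT03 and -0.23, -0.28, -0.22 and -0.15 at ZT11, again with a wide gap (0.61 ± 0.091, adjusted p = 0.0032). The fission GTPase gene Dnm1l, the import channel gene Timm23 and the inner membrane protease gene Yme1l1 were higher by 0.29 ± 0.058, 0.28 ± 0.060 and 0.27 ± 0.061. The matrix protease gene Clpp was lower, at -0.25 ± 0.059. Of 69 genes of the mitochondrial ribosome, Mrpl16 and Mrpl45 were higher (0.29 for both).

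Of 33 complex I genes, 4 were lower at ZT03 and 1 was higher (median -0.060), beside 0.451% lower and 1.83% higher over all genes. Ndufa2, an accessory subunit, measured -0.085, -0.21, -0.24 and -0.044 at ZT03 and 0.21, 0.31, 0.29 and 0.14 at ZT11, with all ZT03 hearts low (-0.38 ± 0.073, adjusted p = 0.0085). The accessory subunits Ndufa8 and Ndufb10 stood at -0.47 ± 0.11 (features -0.69 and -0.26) and -0.29 ± 0.076, and Ndufv1, which binds NADH, at -0.26 ± 0.067. Ndufs1, the large iron-sulfur subunit, was higher by 0.17 ± 0.038 (adjusted p = 0.024). In complexes II to V, 4 of 38 genes were lower and 1 was higher (median -0.028). Cox7a1, the heart and muscle form of a cytochrome oxidase subunit, measured -0.077, -0.19, -0.24 and -0.19 at ZT03 and 0.34, 0.15, 0.22 and 0.025 at ZT11. The groups were apart, ZT11 replicate 4 being nearest to ZT03 (-0.36 ± 0.067, adjusted p = 0.0074). Cox4i1, another cytochrome oxidase subunit, stood at -0.30 ± 0.071, and the small ATP synthase subunits Atp5e and Atp5k at -0.55 ± 0.14 and -0.31 ± 0.083. The features of Atp5e stood at -0.69 and -0.42, and neither passed on its own in the limma fit over features. Uqcrc2, a core subunit of complex III, measured 0.26, 0.17, 0.21 and 0.21 at ZT03 and -0.12, -0.039, -0.15 and 0.035 at ZT11, high in all ZT03 hearts (0.28 ± 0.044, adjusted p = 0.0034).

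Of the calls in the mitochondrial lists, those of Idh3a, Dld, Apool, Dnm1l, Ndufa2, Cox7a1 and Uqcrc2 passed with each heart left out. The others were lost in part of the 24 fits: Mdh1 in 5 (adjusted p up to 0.107, without ZT11 replicate 1), Timm23 in 2 (up to 0.0663, without ZT11 replicate 1), Yme1l1 in 4 (up to 0.0948, without ZT11 replicate 1), Clpp in 6 (up to 0.0822, without ZT03 replicate 3), Mrpl16 in 7 (up to 0.124, without ZT03 replicate 3), Mrpl45 in 17 (up to 0.154, without ZT11 replicate 3), Ndufa8 in 7 (up to 0.104, without ZT11 replicate 1), Ndufb10 in 12 (up to 0.166, without ZT11 replicate 1), Ndufv1 in 7 (up to 0.136, without ZT03 replicate 3), Ndufs1 in 4 (up to 0.0987, without ZT03 replicate 3), Cox4i1 in 6 (up to 0.122, without ZT03 replicate 3), Atp5e in 13 (up to 0.164, without ZT11 replicate 1) and Atp5k in 18 (up to 0.144, without ZT11 replicate 1). Without ZT11 replicate 1, complex I had 1 lower gene and no higher gene, complexes II to V 1 of each, the TCA cycle 2 higher genes, the dynamics, import and cristae list 2 higher and no lower gene, and the mitochondrial ribosome none. With the 2 components as covariates the TCA cycle and the dynamics list each had 1 higher gene and no lower one. Complex I then had 1 lower gene and no higher one, complexes II to V had 1 of each, and the mitochondrial ribosome had none.

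**Figure D3:**
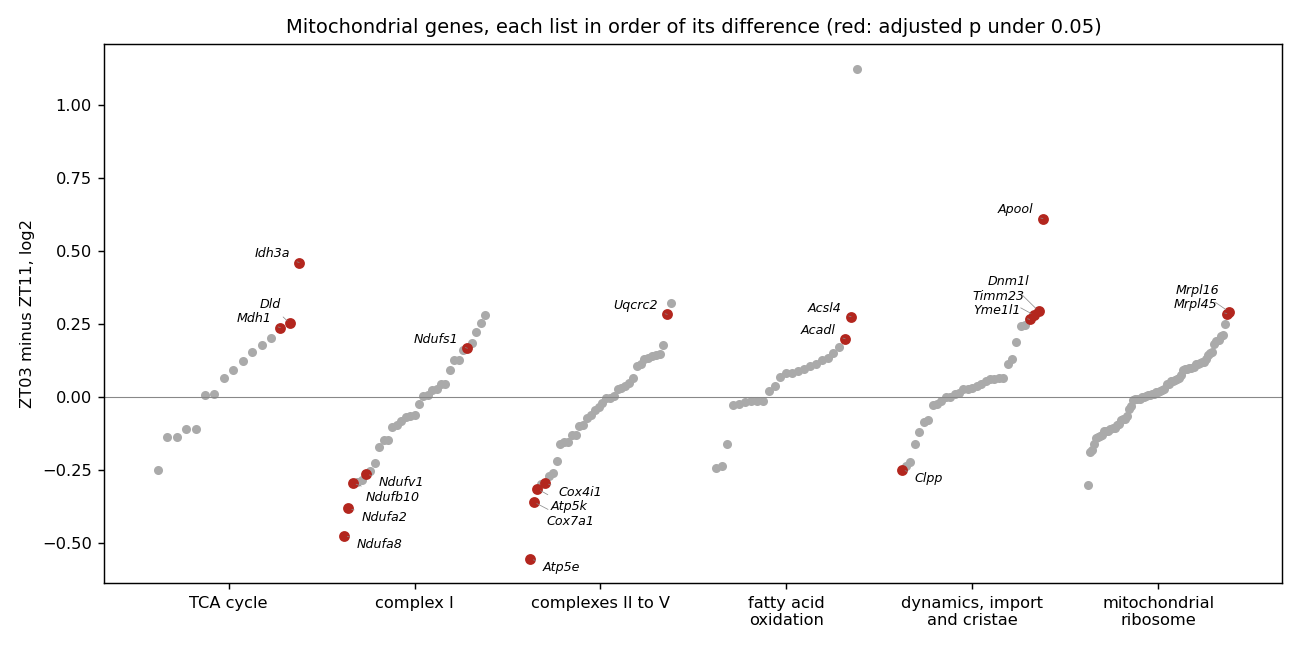
ZT03 minus ZT11 on the log2 scale (vertical axis) for every measured gene (points) of 6 mitochondrial lists, each in order of its difference; red points passed the limma test over all genes (adjusted p under 0.05) and are named. Named respiratory subunits lie mostly below 0, from -0.55 for Atp5e to -0.26 for Ndufv1. The named genes of the TCA cycle list lie above 0, from 0.24 for Mdh1, whose enzyme is cytosolic, to 0.46 for Idh3a. The unnamed highest point is Acot2 at 1.13.

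In protein quality control, 6 genes of the ubiquitin ligase and deubiquitinase list, among them the SUMO protease gene Senp6, rose at ZT03 and 2 chaperones fell. The list of ubiquitin ligases and deubiquitinases also holds Senp6 and Ube2d3. Of its 34 genes, 6 were higher and none was lower, beside 1.83% higher and 0.451% lower over all genes. The median of 0.15 was the highest of the 45 pathway lists after that of the 4 clock activators. The lists were chosen with earlier results of these data known, so this rank is a description. Cul3, the scaffold of the ligases that carry KEAP1 and other BTB adaptors, measured 0.16, 0.20, 0.34 and 0.081 at ZT03 and -0.26, -0.26, -0.15 and -0.096 at ZT11. All ZT03 hearts were higher, ZT03 replicate 3 most (0.39 ± 0.070, adjusted p = 0.0065). Senp6, which removes SUMO chains, was higher by 0.36 ± 0.067 (adjusted p = 0.0074), the ubiquitin-conjugating enzyme Ube2d3 by 0.32 ± 0.066, and the deubiquitinases Usp9x and Usp15 by 0.29 ± 0.063 and 0.21 ± 0.048. Usp1, the sixth gene and outside the rule, stood at 0.40 and passed in 11 of the 24 fits with a heart left out. Without ZT11 replicate 1, 3 genes of this list were called higher, and with the 2 components as covariates 1 was. Of 42 proteasome genes, 2 were higher, the core subunit Psma1 (0.45 ± 0.083, adjusted p = 0.0071) and the activator Psme4 (0.23 ± 0.053), and 3 were lower, Psmb3 (-0.35 ± 0.088), Psmc3 (-0.16 ± 0.042) and Psmd3 (-0.28 ± 0.075). The list median was 0.033, and without ZT11 replicate 1 there was 1 call in each direction.

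Of 30 heat shock and chaperone genes, Cryab and Hspa8 were lower and none was higher (median 0.018), beside 0.451% lower and 1.83% higher over all genes. Hspa8, the constitutive HSP70, measured -0.24, -0.37, -0.34 and -0.40 at ZT03 and 0.30, 0.23, -0.036 and -0.21 at ZT11. ZT11 spread widely, its lowest heart just above ZT03, and its 4 features stood at -0.56, -0.55, -0.51 and -0.029 (-0.41 ± 0.10, adjusted p = 0.038). None of 25 genes of endoplasmic reticulum stress and folding was called. Of 29 autophagy genes, Bnip3, a mitophagy receptor, and Lamp1, a lysosomal membrane protein, were lower, at -0.34 ± 0.074 and -0.17 ± 0.037 (adjusted p = 0.016 and 0.02). Of 58 cytosolic ribosomal protein genes, Rpl38, Rplp1 and Rps6 were lower and Rpl15 was higher (median -0.059). Rpl38 measured 0.18, -0.077, -0.10 and -0.11 at ZT03 and 0.18, 0.83, 0.57 and 0.60 at ZT11. ZT03 replicate 1 all but met ZT11 replicate 1, while the other ZT11 hearts were far higher (-0.58 ± 0.12, adjusted p = 0.017). Rplp1, of the ribosomal stalk, stood at -0.21 ± 0.039 (features -0.30 and -0.12), Rps6 at -0.22 ± 0.057 and Rpl15 at 0.29 ± 0.065. Without ZT11 replicate 1, 1 chaperone gene, 2 autophagy genes and 2 cytosolic ribosomal genes were called lower and 1 cytosolic ribosomal gene higher. Whether the probes of ribosomal protein genes also read their many processed pseudogenes was not tested. Eif4e, the cap-binding factor, was the single called gene of 27 in translation (0.22 ± 0.054), Srpk1, a kinase of SR proteins, of 24 in SR splicing (0.30 ± 0.077). Cryab, Cul3, Senp6, Psma1 and Rplp1 passed with each heart left out, and the other calls were lost in part of these fits: Ube2d3 in 1 (adjusted p up to 0.0628, without ZT03 replicate 3), Usp9x in 4 (up to 0.0843, without ZT03 replicate 3), Usp15 in 4 (up to 0.0887, without ZT03 replicate 3), Psme4 in 5 (up to 0.0837, without ZT11 replicate 3), Psmb3 in 7 (up to 0.14, without ZT11 replicate 1), Psmc3 in 6 (up to 0.156, without ZT03 replicate 3), Psmd3 in 16 (up to 0.153, without ZT03 replicate 1), Hspa8 in 7 (up to 0.147, without ZT11 replicate 1), Bnip3 in 1 (up to 0.0666, without ZT03 replicate 2), Lamp1 in 3 (up to 0.0851, without ZT03 replicate 3), Rpl38 in 4 (up to 0.066, without ZT03 replicate 3), Rps6 in 6 (up to 0.151, without ZT11 replicate 1), Rpl15 in 2 (up to 0.0753, without ZT11 replicate 3), Eif4e in 6 (up to 0.129, without ZT03 replicate 3) and Srpk1 in 12 (up to 0.164, without ZT11 replicate 1).

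In heart muscle's contractile apparatus, 3 genes of the Z-disc and stretch list were lower at ZT03, as were Ckm and Tnni3, and 1 gene of that list was higher. Of 22 Z-disc and stretch genes, Tcap, Xirp1 and Cryab were lower and Fhl1 was higher (median -0.0045), beside 0.451% lower and 1.83% higher over all genes. Tcap, which codes for telethonin, the cap of titin, measured -0.22, -0.17, -0.16 and -0.58 at ZT03 and 0.51, 0.14, 0.52 and 0.36 at ZT11. The groups touched nowhere, though ZT03 replicate 4 lay far below its group (-0.67 ± 0.15, adjusted p = 0.019). Xirp1, an actin-binding protein of the intercalated disc, measured -0.53, -0.29, -0.33 and -0.33 at ZT03 and -0.0012, 0.21, 0.055 and 0.15 at ZT11, with all ZT03 hearts low (-0.47 ± 0.082, adjusted p = 0.0053). Fhl1, a LIM protein linked to titin, was higher by 0.25 ± 0.053. Ckm, the muscle creatine kinase that buffers ATP, measured -0.34, -0.21, -0.40 and -0.16 at ZT03 and 0.39, 0.24, 0.27 and 0.12 at ZT11. The gap between the groups was wide and both features agreed, at -0.59 and -0.48 (-0.53 ± 0.084, adjusted p = 0.0034). Of 21 sarcomere genes only Tnni3, cardiac troponin I, was called (-0.23 ± 0.058, adjusted p = 0.038), and the list median was -0.085. Without ZT11 replicate 1, 3 genes of the Z-disc and stretch list were called lower and none higher. They are not the same 3: Tcap was lost (adjusted p = 0.0663) and a gene not called with all hearts took its place. Tnni3 was not called in that fit (adjusted p = 0.126).

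At the cell border, Itgb1 was the single call among 19 intercalated disc genes, and Kcnj2, the inward rectifier channel Kir2.1, was the single call among 18 potassium channel genes. Kcnj2 measured 0.10, 0.16, 0.067 and 0.17 at ZT03 and -0.49, -0.23, -0.40 and 0.012 at ZT11, its ZT11 hearts spread from far below ZT03 to just under it (0.40 ± 0.10, adjusted p = 0.036). None of 25 calcium handling and depolarising current genes and none of 22 adrenergic genes was called. Of 24 collagen genes, Lox, which crosslinks collagen, was higher by 0.18 ± 0.043 and Col6a1 lower, at -0.22 ± 0.057, with features at -0.38 and -0.066. Of 28 vesicle transport genes, the cargo receptor Tmed7 (0.44 ± 0.074, adjusted p = 0.0043) and the COPII coat gene Sec23a (0.23 ± 0.060) were higher. Xirp1, Ckm, Itgb1 and Tmed7 passed with each heart left out. With ZT11 replicate 1 left out, 1 collagen gene was called lower and none higher, and 1 vesicle transport gene was called higher. Calls were lost for Tcap in 2 (adjusted p up to 0.0663, without ZT11 replicate 1), Fhl1 in 3 (up to 0.0628, without ZT03 replicate 3), Tnni3 in 6 (up to 0.13, without ZT03 replicate 3), Kcnj2 in 7 (up to 0.14, without ZT11 replicate 1), Lox in 5 (up to 0.117, without ZT11 replicate 1), Col6a1 in 17 (up to 0.148, without ZT11 replicate 3) and Sec23a in 16 (up to 0.169, without ZT11 replicate 1) of the 24 fits.

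In the hypoxia axis, 1 of 19 genes was higher and 2 were lower, beside 1.83% higher and 0.451% lower over all genes. Hif1a, the oxygen-regulated transcription factor, measured 0.13, 0.082, 0.081 and 0.057 at ZT03 and -0.14, -0.14, -0.081 and -0.17 at ZT11. The hearts of each time point were close together and the groups were apart (0.22 ± 0.036, adjusted p = 0.0037), but 1 of its features carried the difference (0.38 against 0.062). Bnip3 and Ndrg1, both known HIF targets, were lower (-0.34 ± 0.074 and -0.15 ± 0.040). The features of Ndrg1 stood at -0.18 and -0.13, and neither passed on its own in the limma fit over features. Of 12 peroxiredoxin and thioredoxin genes, Prdx3 and the glutaredoxin gene Glrx (0.45 ± 0.099, adjusted p = 0.02) were higher, with a list median of 0.11. Gstp1, a glutathione transferase, was the single call of 24 antioxidant response genes; it measured -0.18, -0.50, -0.080 and 0.20 at ZT03 and 0.0064, 0.49, 0.40 and 0.43 at ZT11, so that the groups overlapped (-0.47 ± 0.12, adjusted p = 0.044). Of 21 glucocorticoid response genes, Klf15, a Krüppel-like factor of nutrient metabolism, was lower. It measured -0.020, -0.084, -0.15 and -0.064 at ZT03 and 0.036, 0.16, 0.21 and 0.40 at ZT11, with a narrow gap (-0.28 ± 0.068, adjusted p = 0.03). Tm4sf1, a tetraspan membrane protein found on endothelial cells, measured 0.18, 0.24, 0.35 and 0.35 at ZT03 and -0.097, -0.12, -0.44 and -0.019 at ZT11, all ZT03 hearts being higher (0.45 ± 0.073, adjusted p = 0.0038). With ZT11 replicate 1 omitted, the hypoxia axis had 1 call in each direction and the peroxiredoxin and thioredoxin list 1 higher gene. Hif1a, Prdx3 and Tm4sf1 passed with each heart left out, and the other calls did not: Ndrg1 in 20 (adjusted p up to 0.147, without ZT03 replicate 3), Glrx in 3 (up to 0.0804, without ZT11 replicate 1), Gstp1 in 17 (up to 0.161, without ZT03 replicate 2) and Klf15 in 4 (up to 0.108, without ZT03 replicate 3).

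No gene was called in the lists of insulin and FoxO signalling (26 measured), immediate early genes (26), ribosome biogenesis (29), interferon response (23), lipogenesis (19), angiotensin and natriuretic peptides (12), iron (13), histones (10) or cold-inducible RNA-binding proteins (1). Beside the 2.29% called over all genes, nothing is read from these zeros or from a list with a single call. The transferrin receptor gene Tfrc, outside the rule for named genes, came nearest among them (0.52 ± 0.14, adjusted p = 0.061).

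**Figure D4:**
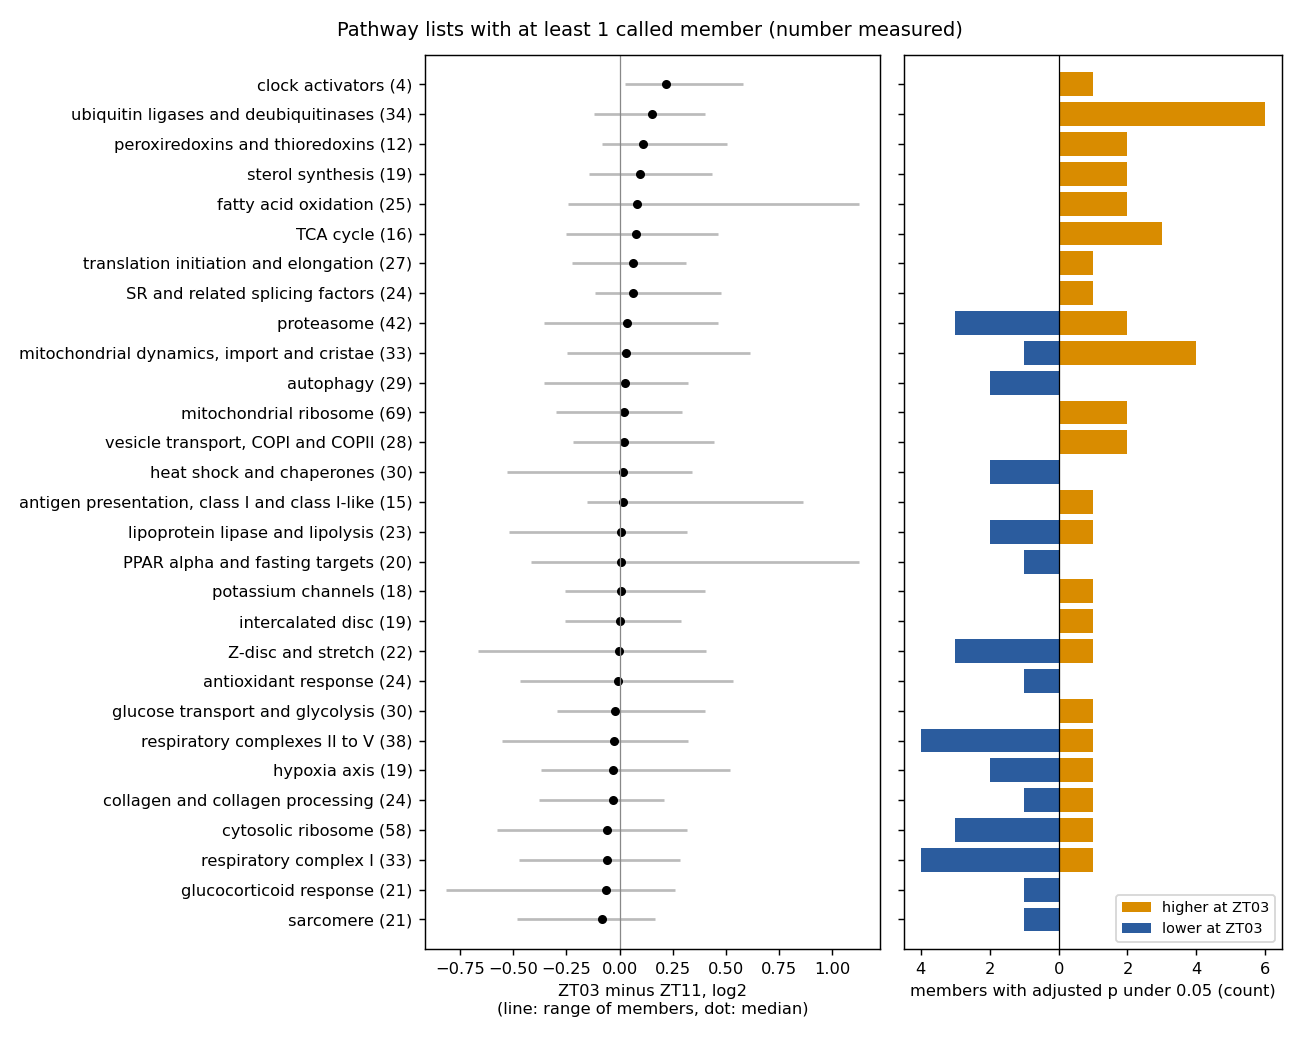
Left, ZT03 minus ZT11 on the log2 scale for the pathway lists with at least 1 called member, with the number of measured genes in brackets; the dot is the median of the members and the line runs from the lowest to the highest member. Right, the number of members that passed the limma test over all genes (adjusted p under 0.05), higher at ZT03 to the right and lower to the left; ubiquitin ligases and deubiquitinases have 6 higher and none lower, both respiratory lists 4 lower and 1 higher.

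In the cell type lists, markers of fibroblasts, endothelial cells, ventricular muscle and skeletal muscle were called, beside 2.29% called over all genes. Of 10 fibroblast markers, Dcn (0.28 ± 0.072, adjusted p = 0.043), the small proteoglycan decorin, and Prrx1, a homeobox factor of mesenchymal cells (0.26 ± 0.062, adjusted p = 0.026), were higher at ZT03. Prrx1 measured 0.15, 0.072, 0.16 and 0.24 at ZT03 and -0.11, -0.10, -0.15 and -0.064 at ZT11, with every ZT03 heart above ZT11. The median of the fibroblast list was 0.19, and its mean per heart ran from 0.071 to 0.17 at ZT03, from -0.030 to 0.13 at ZT07 and from -0.094 to 0.10 at ZT11, so that the ranges overlapped. Its collagen markers Col1a1, Col1a2 and Col3a1 stood at 0.045, -0.075 and -0.036. Neither gene was called without ZT11 replicate 1, and Dcn passed in 8 of the 24 fits with a heart left out. Of 10 endothelial markers Emcn, the sialomucin endomucin, was higher (0.32 ± 0.072, adjusted p = 0.020) at a list median of -0.010, and it too was not called without ZT11 replicate 1. Of 10 ventricular muscle markers Tnni3 and of 10 skeletal muscle markers Ckm was lower, with per-heart means of -0.13 to 0.054 at ZT03 and -0.046 to 0.079 at ZT11 for the ventricular list. Hearts of the same time point differed widely in the mean of the atrial muscle list. It ran from -0.16 to 0.39 at ZT03, from -0.23 to 0.40 at ZT07 and from -0.080 to 0.40 at ZT11. No marker of atrial muscle, smooth muscle and pericytes, macrophages, neutrophils, lymphocytes, erythroid cells (2 measured), white or brown adipocytes, mesothelium, Schwann cells and neurons, or thymus was called. At 2.29% called over all genes, nothing is read from these zeros, and the part of any cell type in the results was not tested.

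At ZT07, in the middle of the light phase, the median called gene lay nearer to ZT03 than to ZT11. Set on a scale from 0% at the ZT11 mean to 100% at the ZT03 mean, the ZT07 mean lay at a median of 71.7% for the 407 higher genes and 69.5% for the 100 lower genes, and it fell between both means in 368 and 88 of them. The dark-phase hearts lay at 26.5%, 51.8% and 26.3% for the higher genes at ZT15, ZT19 and ZT23, and at 40.6%, 56.6% and 48.1% for the lower genes. Since these genes were chosen for their difference between ZT03 and ZT11, the positions are a description. Of the higher genes, 365 had their highest mean of the 6 time points at ZT03 and 316 their lowest at ZT11, and of the lower genes 79 were lowest at ZT03 and 89 highest at ZT11. Cryab was still low at ZT07, at -0.29 ± 0.048 (SD, n = 4), as was Cox7a1 at -0.20 ± 0.11 (SD), close to their ZT03 means of -0.38 ± 0.049 and -0.18 ± 0.070. Xirp1 and Tcap were near their median by then (-0.065 ± 0.053 and 0.010 ± 0.19, SD), the former more than midway towards ZT11. Tested gene by gene, no ZT07 mean passed the test against the midpoint of ZT03 and ZT11 (limma, 0 genes at an adjusted p under 0.05; 1071, or 4.83%, at an unadjusted p under 0.05, where chance gives 1109). The smallest p-values of that test, none of them passing, belonged, with ZT07 minus the midpoint in brackets, to Gpr65 (0.32), Pde1c (0.22), Nudt19 (0.19), Aen (-0.19) and Mapkapk5 (-0.19).

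The same 8 h interval in the dark phase, ZT15 minus ZT23, gave no called gene (limma, adjusted p under 0.05; 1249 genes, or 5.63%, at an unadjusted p under 0.05). The smallest p-values there, none passing, belonged to Hes5 (0.23), Prrx1 (-0.36), Mtdh (0.50), H2ac10 (-0.38) and Smg9 (0.24). These hearts share none with ZT03 and ZT11. Of the 507 genes called in the light phase, 253 (49.9%) had the opposite sign in the dark phase, and their median dark difference was 0.0053 for the higher and 0.014 for the lower genes. The difference between both intervals was tested directly, and 27 genes passed (0.122%; 2468, or 11.1%, at an unadjusted p under 0.05), 18 with a larger value in the light and 9 with a smaller one. Cryab had a lower value at the earlier time in the light phase and not in the dark phase (-0.53 against 0.094; difference of the intervals -0.62 ± 0.080 SE, adjusted p = 0.0031). For Lpl (-0.52 against 0.023, adjusted p = 0.016), Tmem63b (-0.35 against 0.087, adjusted p = 0.0082) and Xirp1 (-0.47 against 0.13, adjusted p = 0.044) the order was the same. Prrx1 was positive in the light phase and negative in the dark phase (0.26 against -0.36, adjusted p = 0.0063), as were Tm4sf1, Senp6 and Hif1a. The number of such genes rested on single hearts: it fell by over 1.5 times without any one of 15 hearts, to 8 without ZT03 replicate 2, and rose by as much without ZT03 replicate 4 (55), ZT11 replicate 4 (132) or ZT19 replicate 2 (46).

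**Figure D5:**
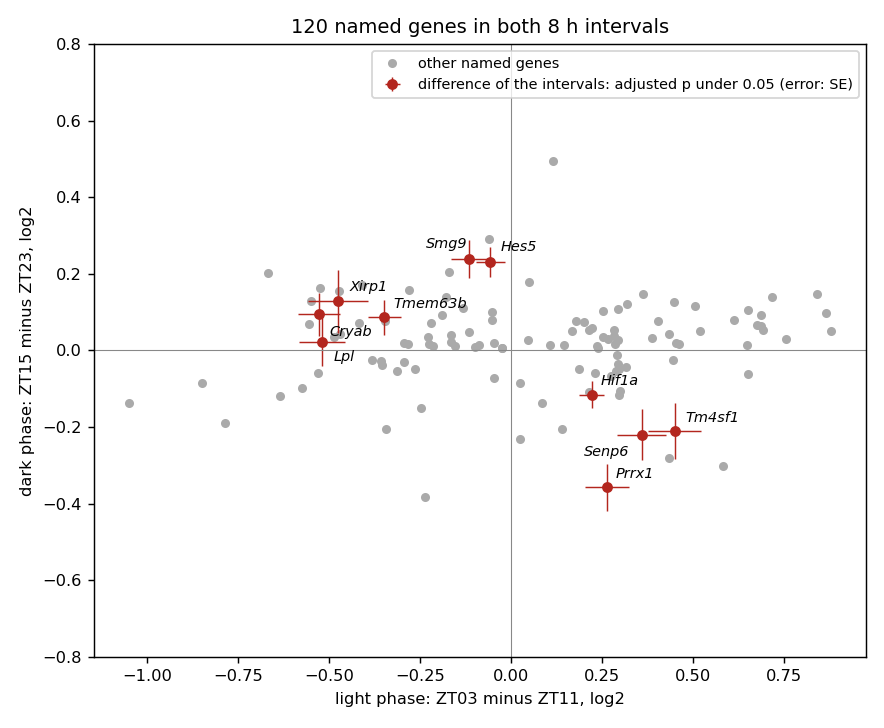
ZT03 minus ZT11 (horizontal axis) against ZT15 minus ZT23 (vertical axis), both on the log2 scale, for the 120 named genes; red points with SE bars are the named genes whose 2 intervals differed in the limma test of that difference (adjusted p under 0.05). Cryab, Lpl, Xirp1 and Tmem63b lie at the left slightly above 0, and Prrx1, Tm4sf1, Senp6 and Hif1a at the lower right.

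The median span was longer for genes called higher at ZT03 and shorter for those called lower. Among protein-coding genes it was 36443 bases in RefSeq for those called higher (397 genes), 10994 bases for those called lower (85 genes) and 18690 bases for all 18984. With genes split by span into 5 equal groups, from the shortest to the longest, the share called higher was 0.263%, 1.13%, 2.27%, 3.29% and 3.50%, and the share called lower 0.579%, 0.632%, 0.448%, 0.395% and 0.184%. The median GC content of the promoter windows was 61.3% for the higher and 60.5% for the lower genes beside 57.1% for all. The part of gene span in the other results was not tested.

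The values that the calls rest on differ in firmness. Of 91 named genes that passed, the hearts overlapped in 9 (Col6a1, Eif4e, Fhl1, Gbe1, Gstp1, Psmd3, Rps6, Srpk1 and Usp15), and 32 passed whichever heart was omitted. Most calls were lost without ZT03 replicate 3 (53), ZT11 replicate 1 (50), ZT11 replicate 3 (48) and ZT03 replicate 2 (44). A fit of the 8 arrays of ZT03 and ZT11 alone, which has fewer arrays to estimate the spread from, called 56 genes, 44 higher and 12 lower. Whether a wider spread among the ZT11 hearts also lowered this number was not tested. In this limma fit the adjusted p of Cryab was 0.037 in place of 0.00016. For Lpl and Prdx3 it was 0.037 and 0.02, in place of 0.00048 for both. Of the named genes, 20 passed there: Cryab, Lpl, Prdx3, Tmem63b, Tmem65, Golph3l, Lgr4, Mr1, Apool, Hif1a, Ckm, Xirp1, Psma1, Ube2d3, Clpp, Cript, Mospd1, Tmem59, Atad1 and Cd59a. No named gene that passed changed its sign under any setting, which was largely fixed in advance. These genes were chosen for this difference, and where the hearts do not overlap, leaving out 1 heart cannot reverse it.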

How the data were processed

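Total RNA from snap frozen hearts was turned into biotin-labelled cRNA and hybridised to Affymetrix arrays, per the labels' protocols. The deposited values of the 24 arrays were on a log scale, taken as log2, and each feature had been centred on its median over the arrays by the authors, as the values themselves show. The log base, probe summarization, normalization and filters are not given in the sources used here. Of 34351 features, 23521 carried exactly 1 gene symbol in the platform annotation, 1814 carried several and 9016 none. Features of a gene were averaged, which gave 22180 genes (1082 with several features).

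Groups came from the sample titles. A linear model over all 6 time points (limma 3.58.1 in R 4.3.3, lmFit and eBayes) gave each difference, its SE and its Benjamini-Hochberg adjusted p over all genes, with a threshold of 0.05. It was tested on simulated data first. In the same model 3 other contrasts were tested: ZT07 against the midpoint of ZT03 and ZT11, ZT15 minus ZT23, and the difference of both 8 h intervals. Among genes with a proper symbol (no gene models, olfactory or vomeronasal receptors, microRNAs or small nucleolar RNAs), those named were the 12 largest called differences in each direction, the 10 smallest p-values, up to 5 called members of each pathway list, all measured core clock genes and the 5 smallest p-values of each other contrast. The genes compared, the lists and the markers were chosen with earlier results of these data known. Alternatives changed the arrays used, the features per gene, the genes tested, the normalization, the weights, the replicate block and the covariates. Gene spans, biotypes and promoter windows came from RefSeq (GRCm38.p6). Nothing in the sources gives a scan date or another batch.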

Additional observations from a re-analysis of the deposited data

Results flagged for a closer look

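In 10 of the named genes the difference between early and late light phase departed from that between early and late dark phase. In this limma test of the difference over all genes, 27 of 22180 genes passed (0.122%). The rule for named genes takes in the smallest p-values of this contrast and of both its parts, so the 10 are not an independent count. In brackets, ZT03 minus ZT11 comes first and ZT15 minus ZT23 second, after the difference itself. The departure was negative for Cryab (-0.62, from -0.53 and 0.094; adjusted p = 0.0031), Lpl (-0.54, from -0.52 and 0.023; adjusted p = 0.016), Xirp1 (-0.60, from -0.47 and 0.13; adjusted p = 0.044) and Tmem63b (-0.44, from -0.35 and 0.087; adjusted p = 0.0082). Hes5, a Notch target (-0.29, from -0.058 and 0.23), and Smg9, of nonsense-mediated decay (-0.35, from -0.12 and 0.24), had an adjusted p of 0.044 each, with most of their difference in the dark. It was positive for Prrx1 (0.62, from 0.26 and -0.36; adjusted p = 0.0063), Tm4sf1 (0.66, from 0.45 and -0.21; adjusted p = 0.012), Senp6 (0.58, from 0.36 and -0.22; adjusted p = 0.016) and Hif1a (0.34, from 0.22 and -0.12; adjusted p = 0.0082).

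A single heart stood apart from the other 3 of its time point in 11 of 240 gene and time point groups of the named genes (Dixon's test at its 95% critical value), where chance gives about 5%. At ZT03, replicate 1 was high for Dbp (0.23 against -0.081 to -0.056), Psmb3 (-0.025 against -0.15 to -0.14) and Rpl38 (0.18 against -0.11 to -0.078). Replicate 2 was low for Mospd1 (0.22 against 0.41 to 0.43), and replicate 4 was low for Tcap (-0.58 against -0.22 to -0.16) and Ndufa8 (-0.35 against -0.12 to -0.081). At ZT11, replicate 1 was low for Rorb (-0.11 against -0.0042 to 0.016), and replicate 3 was low for Mtdh, a cofactor of nuclear factor kappa B (-0.23 against 0.037 to 0.044). ZT11 replicate 2 was low for Arntl2 (-0.069 against 0.11 to 0.12) and Eif4e (-0.27 against -0.090 to -0.059) and high for Bnip3 (0.38 against 0.20 to 0.22).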

How the results depend on the processing

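Leaving out 1 heart at a time gave 190 to 747 genes in place of 507, 137 to 609 of them higher at ZT03 and 30 to 138 lower, 0 to 1 gene for ZT15 minus ZT23, and 8 to 132 for the difference of the intervals in place of 27. With the first 2 components as covariates, chosen after the data were seen, 89 genes were called, 55 higher and 34 lower (61.8% higher in place of 80.3%). The 8 arrays of ZT03 and ZT11 alone gave 56, 44 and 12, with fewer arrays to estimate the spread from. Without both arrays of lowest weight there were 222, of which 141 were higher. Array weights gave 668, of which 164 were lower. The cause of these shifts was not tested. For the difference of the intervals, genes with 1 feature alone gave 5 and leaving out the genes of smaller SD gave 45. The replicate numbers were not taken to pair the hearts, since not every same-numbered pair correlated above 0.1, but pairing stayed undecided: the deviations of same-numbered ZT03 and ZT11 hearts correlated at 0.198, 0.042, 0.032 and 0.149, 7 of these 8 hearts correlated best with their own number, and over all time points 8 of 60 same-numbered pairs were above 0.1. With the replicate block 501 genes were called, 440 of them among the 507, and the difference of the intervals gave 13. Of the 91 named genes, 9 then had an adjusted p over 0.05: Arntl (adjusted p = 0.0589), Klf15 (0.0514), Insig1 (0.0534), Acsl4 (0.0525), Col6a1 (0.0534), Mrpl45 (0.0563), Ndrg1 (0.0555), Ndufv1 (0.0602) and Psmd3 (0.0718). Quantile normalization gave 392, centring each array 514, robust empirical Bayes 488, the 12 light-phase arrays 405, the feature of largest SD 512 and genes with 1 feature 464. The contrasts with ZT15 and ZT23 were not run on 8 or 12 arrays. No sign changed among the 91 named genes that passed, but they were chosen for their difference, and the replicate block leaves the difference itself unchanged. Of these genes, 65 lost their call with the 2 components and 71 with 8 arrays. Signal over background cannot be read from centred values, so dim probes could not be set aside.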
